A study of Nothobranchius furzeri with 168 samples.

Results

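Skin of male turquoise killifish (Nothobranchius furzeri) was compared at day 21 between MZCS-0403 and MZM-0403, which the study describes as longer-lived strains. The comparison uses 12 of the 168 RNA-seq libraries of the series, chosen by their labels as skin, male and day 21: 6 fish of MZCS-0403 and 6 fish of MZM-0403, 1 skin library per fish. The series samples brain and skin of these strains and of the short-lived strain GRZ-D across several ages. Used for reference here are the 12 brain libraries of the same fish, the skin and brain of 8 GRZ-D males of day 21, and 17 skin libraries of older males (4 MZCS-0403 of day 39, 5 MZM-0403 of day 35, and 2 MZCS-0403 and 6 MZM-0403 of day 287). A check of the fit also used all 84 skin libraries of the series. These add GRZ-D males of days 35, 49, 100 and 147 and MZCS-0403 males of day 147. They also add females: GRZ-D of day 49, MZCS-0403 of days 147, 217 and 287, and MZM-0403 of day 147. No fish was treated, and the labels name no generation, litter or housing batch. Strain and any such factor therefore cannot be told apart.

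The turquoise killifish lives in temporary ponds of southern Africa and is used in ageing research because it matures within weeks and dies within months. Its skin is a living epidermis with mucous cells over a dermis that holds scales, fibroblasts, vessels and the pigment cells that colour the males. Lines of the species that stem from different wild populations differ in lifespan, in male colour and, through their separate ancestry, at many places in the genome. A bulk skin library sums the RNA of all these cell types, so fewer cells of a type and less RNA per cell cannot be told apart. The deposited table gives each gene by an ID and pairs no ID with a name, and 0 of its 26739 IDs matched the RefSeq table used here. Genes are therefore given by ID, without names, roles, positions or sequences, and marker genes of skin cell types could not be looked up.

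Depth was similar across the 12 libraries. Total counts ran from 23018224 to 28837777 in MZCS-0403 and from 21222542 to 25977604 in MZM-0403. The 10 most counted genes held 22.17% to 29.75% of counts in MZCS-0403 and 22.53% to 28.95% in MZM-0403. No strain difference was detected in total counts, in the number of genes with a count or in that share (adjusted p = 0.695 each over 3 features, 2-sided exact permutation test, n = 6 each). The labels number the fish as separate males, and p-values measure the spread between these fish. As a check of the tissue label, each library was correlated across 17925 genes with the mean profiles of the GRZ-D males of day 21. All 12 lay near the skin profile (0.913 to 0.947) and far from the brain profile (0.331 to 0.378).

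A library of MZCS-0403, replicate 6, stood apart. Its median correlation with the other 5 MZCS-0403 libraries was 0.907, whereas the other 5 had medians of 0.960 to 0.970 and the 6 MZM-0403 libraries 0.960 to 0.973 within their own strain. In it, 381 genes lay at least 4-fold above and 221 at least 4-fold below the mean of the other MZCS-0403 libraries. The corresponding numbers in the other 11 libraries, each against its own strain, were 11 to 93 above and 23 to 87 below. The brain library of the same fish did not stand apart (median correlation 0.983 with the other MZCS-0403 brains, whose own medians were 0.980 to 0.984). On the first principal component, which held 34.2% of the variance, all 6 MZCS-0403 libraries lay on the opposite side from all 6 MZM-0403 libraries. Replicate 6 was the extreme library of both of the first components.

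**Figure D1:**
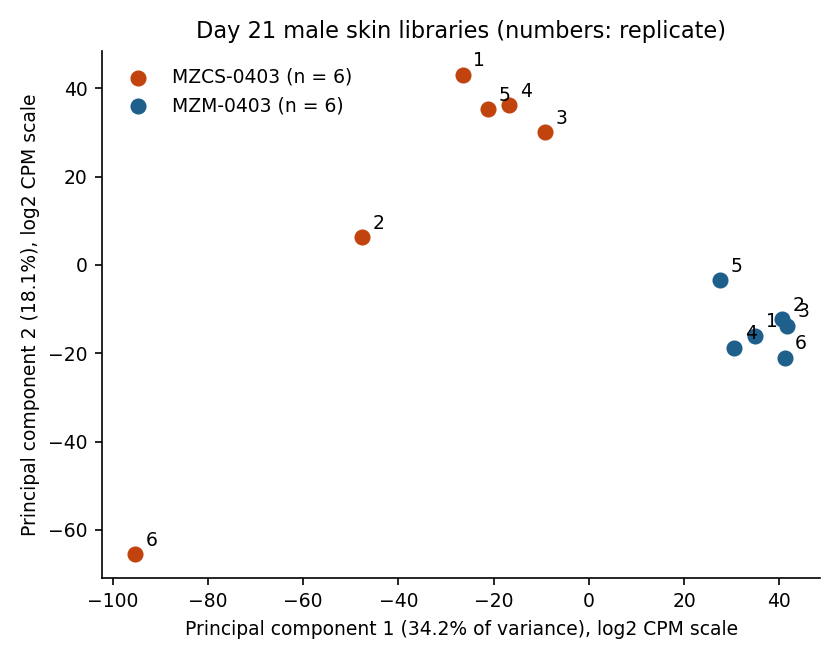
Scores of the 12 day 21 male skin libraries on the first and second principal components of log2 CPM, with 34.2% and 18.1% of the variance. Each point is a fish, numbered by replicate. MZCS-0403 and MZM-0403 separate on the first component, and MZCS-0403 replicate 6 lies far from every other library.

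Fish of MZCS-0403 differed more among themselves in skin than fish of MZM-0403, and the difference was small without replicate 6. Over 11196 genes with a mean of at least 5 CPM (the count scaled to a common library size) in both strains, the median SD of log2 CPM among fish was 0.302 in MZCS-0403 and 0.233 in MZM-0403, and 7144 genes had the larger SD in MZCS-0403. Without replicate 6 the MZCS-0403 median was 0.236 and 5614 genes had the larger SD in MZCS-0403. Replicate 6 was left out because it stood apart, and no MZM-0403 library was left out, so this fall was favoured by the choice. In brain of the same fish, over the same genes chosen by their skin level, the medians were 0.127 in MZCS-0403 and 0.114 in MZM-0403. There 6771 genes had the larger SD in MZCS-0403.

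In the fit of the 12 libraries a minority of skin genes was called as different, about equally in both directions. Of 18053 genes tested, 1475 differed at an adjusted p under 0.05 (8.17%; edgeR quasi-likelihood test with Benjamini-Hochberg adjustment). In MZCS-0403, 734 were higher (4.07%) and 741 lower (4.10%) than in MZM-0403. Most differences were moderate: the median size among called genes was 0.96 on the log2 scale, with quartiles of 0.67 and 1.54. At least 2-fold differences numbered 705 (3.91%), 384 higher and 321 lower in MZCS-0403, and at least 4-fold differences 142 higher and 81 lower. The median log2 fold change over all genes was 0.03. Before adjustment, 4423 of the 18053 genes had a p under 0.05 by the same edgeR test. Genes not called are therefore not shown to be alike in the strains. The CPM of the 6 fish of each strain did not overlap for 1004 genes (5.56%), of which 858 were called, that is 58.2% of the called genes.

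The number of calls varied with the libraries fitted. Without MZCS-0403 replicate 6 it was 1578, 770 higher and 808 lower in MZCS-0403, and 1285 of these were among the 1475. Without MZM-0403 replicate 2 it was 951. When all 84 skin libraries of the series shared the estimate of spread, 2767 of 23722 genes tested were called, 1600 higher and 1167 lower in MZCS-0403. Of these calls, 1137 were among the 1475. In that fit 8 libraries labelled skin correlated more with the brain than with the skin profile of GRZ-D: all 6 of the GRZ-D males of day 49, 1 GRZ-D female of day 49 and 1 MZCS-0403 female of day 287. Without these 3 groups the number was 3648 of 23160 genes tested, 2034 higher and 1614 lower, and 1344 of the calls were among the 1475.

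**Figure D2:**
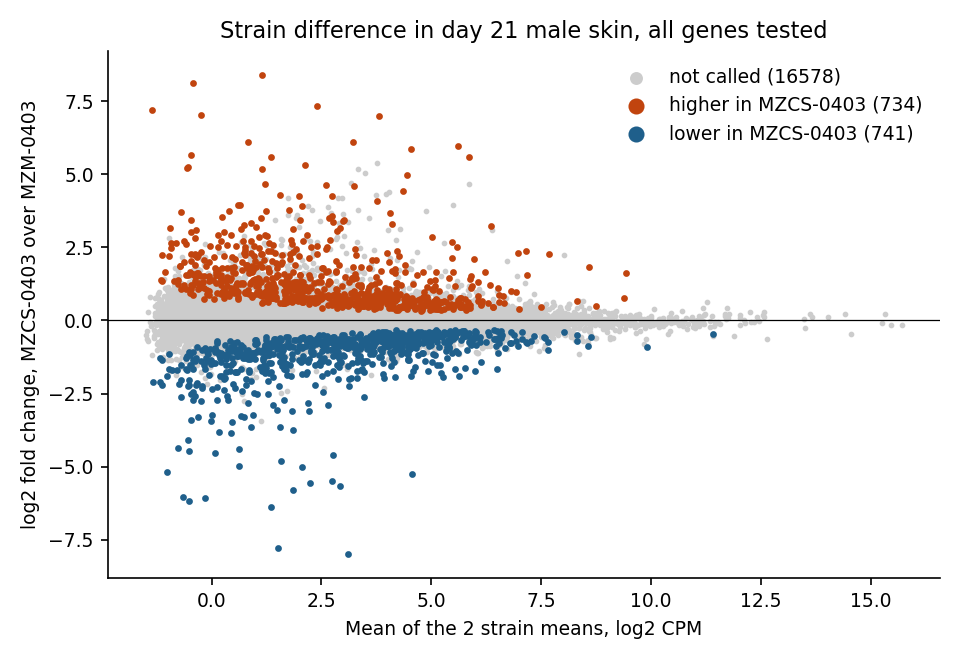
Log2 fold change of MZCS-0403 over MZM-0403 in day 21 male skin (vertical) against the mean level in log2 CPM (horizontal), 1 point per gene tested. The 734 genes called higher and the 741 called lower in MZCS-0403 fan out towards low levels, and few lie at high levels.

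The share of genes called was larger at lower expression. Genes were grouped by their mean level in the skin of the GRZ-D males, which take no part in the comparison. Only genes that passed the filter on low counts in MZCS-0403 or MZM-0403 skin were grouped. Among genes low in GRZ-D, this filter favours those high in either strain, so the shares are not independent of the comparison. Of 1776 genes under 1 CPM in GRZ-D skin, 12.7% were called and 11.7% were called at least 2-fold different. The shares called were 9.05% of 7282 genes at 1 to 10 CPM, 6.92% of 8031 genes at 10 to 100 CPM and 3.63% of 964 genes at 100 CPM or more. In the last group 35 genes were called, 13 higher and 22 lower in MZCS-0403, and 5 of them at least 2-fold.

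The share called was not larger among genes typical of skin. Of 1402 genes whose level in GRZ-D was at least 4 higher in skin than in brain on the log2 scale, 93 were called (6.63%), 45 higher and 48 lower in MZCS-0403. Of 912 genes at least 4 higher in brain, also 93 were called in skin (10.2%), 58 higher and 35 lower. Genes within 1 of each other in the tissues were called at 8.11%, close to the 8.17% of all genes. The shares by level and by tissue are descriptions and were not tested against each other. Both cover only genes that passed the filter on low counts in MZCS-0403 or MZM-0403 skin. The tissue classes were not matched for level in skin, with which the share called also varied. The shares by tissue are therefore not independent of level, of the filter or of the comparison.

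Nfu_g_1_021015 had the largest difference among the genes that were higher in MZCS-0403, by the rule of naming given under the processing. Its lowest, median and highest skin levels were 7.74, 10.3 and 13.6 CPM in MZCS-0403. In MZM-0403 no library had more than 2 counts, with a highest level of 0.112 CPM. Every MZCS-0403 fish lay far above every MZM-0403 fish, and the level was at least 62.7-fold higher in MZCS-0403 when MZM-0403 is set at its floor of 3 counts per library (adjusted p 4.41e-08, edgeR). GRZ-D males of the same age had 25.5 ± 8.15 CPM (SD, n = 8), so that MZM-0403 was the strain nearly without it.

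Nfu_g_1_002766 was the abundant gene with the largest difference in this direction. Its lowest, median and highest levels were 67.2, 157 and 218 CPM in MZCS-0403 and 6.96, 11.7 and 29.3 CPM in MZM-0403. The lowest MZCS-0403 fish, replicate 6, was still above the highest MZM-0403 fish. The means were 148 ± 62.9 CPM in MZCS-0403 and 15.6 ± 8.74 CPM in MZM-0403 (SD, n = 6 each), which differed by 3.24 on the log2 scale with an SE of 0.40 (edgeR, adjusted p 0.000272). In GRZ-D it was higher than in both, at 915 ± 195 CPM (SD, n = 8).

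Nfu_g_1_000975 was the mirror image of the first gene. No MZCS-0403 skin library had more than 2 counts of it, against a lowest, median and highest level of 11.2, 17.1 and 23.4 CPM in MZM-0403. It was at least 122-fold lower in MZCS-0403 at the floor of 3 counts per library (edgeR, adjusted p 2.67e-08), and the fish of the strains did not overlap. GRZ-D also had little of it, with 0 to 13 counts per library and a mean of 0.16 ± 0.185 CPM (SD, n = 8).

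Nfu_g_1_011746 was the abundant gene with the largest difference among those lower in MZCS-0403. Its lowest, median and highest levels were 31.8, 46.3 and 50.6 CPM in MZCS-0403 and 105, 130 and 188 CPM in MZM-0403. The means of 43.4 ± 8.01 CPM in MZCS-0403 and 138 ± 30.9 CPM in MZM-0403 (SD, n = 6 each) differed by -1.67 on the log2 scale with an SE of 0.17 (edgeR, adjusted p 4.52e-05). GRZ-D had 52.5 ± 27.1 CPM (SD, n = 8), with fish from 20.4 to 97.3 CPM.

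**Figure D3:**
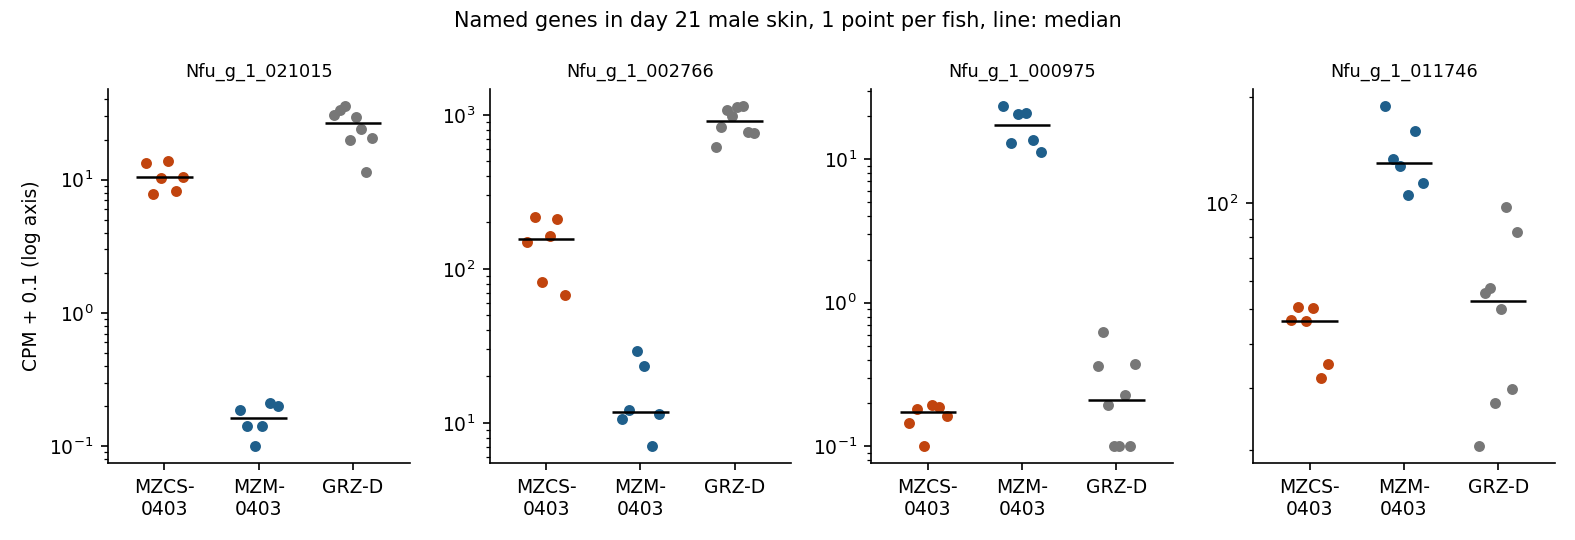
Levels of the 4 named genes in day 21 male skin as CPM plus 0.1 on log axes, 1 point per fish and a line at the median, for MZCS-0403 (n = 6), MZM-0403 (n = 6) and GRZ-D (n = 8). For each gene the fish of MZCS-0403 and MZM-0403 do not overlap, and the GRZ-D median lies nearer the MZCS-0403 median than the MZM-0403 median.

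Genes nearly absent from the skin of a strain were few. In 9 genes no MZM-0403 library had more than 3 counts while MZCS-0403 averaged at least 1 CPM, and in 6 genes no MZCS-0403 library had more than 3 counts while MZM-0403 averaged at least 1 CPM. Their levels in the strain that had them were low, with a median of 1.5 CPM in MZCS-0403 for the 9 and of 1.58 CPM in MZM-0403 for the 6. Nfu_g_1_021015 and Nfu_g_1_000975 had the highest levels of the 9 and of the 6. Absence by this limit did not always extend to brain. Of the 9 genes, 4 stayed at 3 counts or fewer in every MZM-0403 brain library. Of these 4, 3 averaged at least 1 CPM in MZCS-0403 brain. Of the 6 genes, 1 did so in every MZCS-0403 brain library. Genes above the limit could still differ in brain. All but Nfu_g_1_005571, Nfu_g_1_006157 and Nfu_g_1_016312 of the 9 and Nfu_g_1_026008 of the 6 were called in the same direction in brain and older skin.

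On the genes that differed, the short-lived strain lay nearer MZCS-0403 about as often as over all genes. The mean log2 level of GRZ-D skin lay nearer MZCS-0403 for 816 of the 1475 called genes (55.3%) and nearer MZM-0403 for 659, against 56% nearer MZCS-0403 among all 18053 genes tested. Among genes lower in MZCS-0403 the share nearer MZCS-0403 was 59.1% of 741, and among genes higher in MZCS-0403 it was 51.5% of 734.

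Brain libraries of the same 12 fish show whether a skin difference is found elsewhere in the body. Of 1385 genes called in skin and also tested in brain, 1148 (82.9%) had the same direction in brain, against 62.7% of all 17016 genes tested in both. Brain alone had 4312 calls of 19814 genes (21.8%), 2066 higher and 2246 lower in MZCS-0403, with a smaller median size of 0.45 on the log2 scale. Fish varied less in brain (median SDs of 0.127 and 0.114) than in skin (0.302 and 0.233). The shares called in the 2 tissues are therefore not a like comparison. Both tissues called 732 genes, which is 52.9% of the skin calls and 19.7% of the 3712 brain calls among the genes tested in both, and 692 of them had the same direction. Of all genes tested in both, 21.8% were called in brain. In the other 40 the direction was opposite, with 23 higher in MZCS-0403 skin and lower in its brain and 17 the reverse. The log2 fold changes of skin and brain correlated at 0.488 across all genes and 0.724 across the skin calls, a description over genes that share fish and are not independent replicates.

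**Figure D4:**
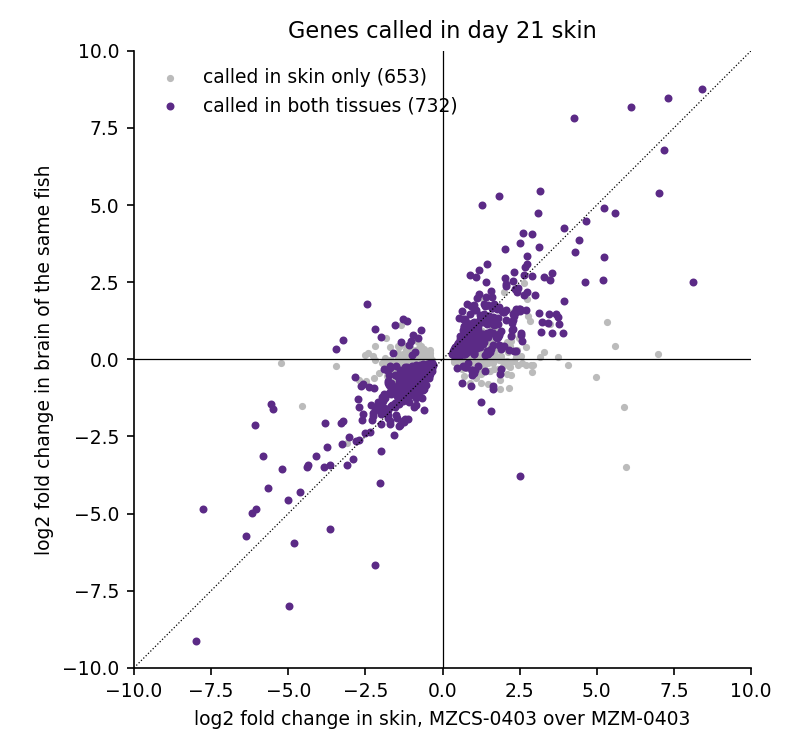
Log2 fold change of MZCS-0403 over MZM-0403 in skin (horizontal) and in brain of the same fish (vertical) for the 1385 genes called in skin and tested in both. Dark points are the 732 genes called in both tissues, grey points those called in skin only, and the dotted line marks equal changes. Most dark points lie in the quadrants of equal direction.

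All 4 named genes differed in brain in the same direction as in skin. Nfu_g_1_021015 had 15.4 ± 1.57 CPM in MZCS-0403 brain and at most 2 counts in any MZM-0403 brain library (at least 95-fold higher; edgeR, adjusted p 3.88e-11). Nfu_g_1_000975 had at most 3 counts in any MZCS-0403 brain library and 34.5 ± 15.5 CPM in MZM-0403 brain (at least 217-fold lower; edgeR, adjusted p 1.69e-07). The abundant genes had smaller differences in brain than in skin. Nfu_g_1_002766 had 46.3 ± 29.7 CPM in MZCS-0403 brain and 20.1 ± 2.99 CPM in MZM-0403 brain (log2 difference 1.2 with an SE of 0.32; edgeR, adjusted p 0.0194). Nfu_g_1_011746 had 16.3 ± 3.56 CPM in MZCS-0403 brain and 31.7 ± 3.63 CPM in MZM-0403 brain (SD, n = 6 each; log2 difference -0.96 with an SE of 0.13; edgeR, adjusted p 0.000191). The strain difference in skin minus that in brain was 2.01 for Nfu_g_1_002766 (SE 0.51; edgeR, adjusted p 0.0259) and -0.75 for Nfu_g_1_011746 (SE 0.21; edgeR, adjusted p 0.0484). With the fish as a block the adjusted p was 0.00318 for Nfu_g_1_002766 and 0.0914 for Nfu_g_1_011746. Over 18 alternatives it ran from 0.00286 to 0.0663 for Nfu_g_1_002766, which lost the call in 5. For Nfu_g_1_011746 it ran from 0.0267 to 0.133, and the call was lost in 13.

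Tested as an interaction, the strain difference in skin differed from that in brain for 843 of 21005 genes (4.01%), 384 with the more positive difference in skin and 459 with the more negative. With the fish as a block it was 687 genes, 540 of them the same. Without MZM-0403 replicates 1, 2 and 3 in turn it was 531, 511 and 538. Of the 843, 283 were called in skin and not in brain, 263 in brain and not in skin, and 173 in neither tissue alone. The fits of skin alone and of brain alone tested fewer genes, 18053 and 19814. A gene not tested in one of them is counted here as not called in that tissue. A further 84 were called in both with the same direction, 69 of them with the larger difference in skin, and 40 were called in both with opposite directions. Among the genes called in skin, 27.6% were called for this difference, against 3.99% of all genes tested in both fits. The same skin libraries chose these genes and enter the interaction, so the larger share was favoured by the choice.

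In the genes with the largest differences between the tissues, few fish had high levels in the tissue where the strain means differed more. Nfu_g_1_008172 had 199 CPM in skin of MZCS-0403 replicate 6 and at most 2.62 CPM in the other 5 MZCS-0403 fish, against at most 0.798 CPM in MZM-0403 skin. Nfu_g_1_004382 had 167 CPM in the same library and at most 0.229 CPM in the other 5, against at most 0.200 CPM in MZM-0403 skin. Neither passed the filter on low counts in skin alone. Without replicate 6 the difference between the tissues was 4.49 on the log2 scale for Nfu_g_1_008172 (edgeR, adjusted p 0.0498) and 0.66 for Nfu_g_1_004382 (edgeR, adjusted p 0.94). Nfu_g_1_010091 and Nfu_g_1_021022, which had the most negative values, were high in the brains of MZCS-0403 replicates 2 and 3. There they reached 343 and 149 CPM and 31.4 and 11.5 CPM, and at most 1.25 and 0.641 CPM in the other 4 MZCS-0403 brains. The brain of GRZ-D replicate 5 was also high in both, with 145 CPM of Nfu_g_1_010091 and 31.4 CPM of Nfu_g_1_021022. In skin Nfu_g_1_010091 had at most 0.505 CPM in MZCS-0403 and 0.614 CPM in MZM-0403, and it was not tested in skin alone either. In skin Nfu_g_1_021022 had 8.32 ± 3.81 CPM in MZCS-0403 and 7.25 ± 3.30 CPM in MZM-0403 (SD, n = 6 each), with no difference detected (edgeR, adjusted p 0.8). None of these 4 genes was called for the difference between the tissues with the fish as a block (adjusted p 0.0708, 0.671, 0.0867 and 0.165 in the order named, edgeR). Over the 17 alternatives with a value for the first pair and 18 for the other, the adjusted p ran from 0.0134 to 0.0708 for Nfu_g_1_008172, from 0.0409 to 0.94 for Nfu_g_1_004382, from 1.97e-05 to 0.701 for Nfu_g_1_010091 and from 6.22e-05 to 0.194 for Nfu_g_1_021022. DESeq2 returned no p for Nfu_g_1_008172 and Nfu_g_1_004382.

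Skin of older males, from other fish, shows how far the day 21 difference is found at later ages. Calls at the older ages came from a fit of 29 male skin libraries, and those of day 21 from a fit of 12. The numbers of calls are therefore not a measure of change with age. At day 287, with 2 MZCS-0403 and 6 MZM-0403 males, 5351 of 20847 genes differed (25.7%), 2568 higher and 2783 lower in MZCS-0403. This number rested on the few MZCS-0403 males, since without replicate 1 of them it was 2043 and without replicate 2 it was 2163. Of the 1475 genes called at day 21, 1083 (73.4%) had the same direction at day 287, against 59.5% of all genes tested at both ages. Called at both ages were 580 genes, 39.3% of the day 21 calls and 11.9% of the 4872 day 287 calls among the genes tested in both fits (27% of those genes), and 503 of these had the same direction.

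Between MZCS-0403 of day 39 and MZM-0403 of day 35, 5756 of 20847 genes differed (27.6%), 2371 higher and 3385 lower in MZCS-0403. The ages differ by 4 days, so strain and age cannot be told apart here. The direction of day 21 was shared by 1044 of the 1475 genes (70.8%), against 55.9% of all genes. Genes called both here and at day 21 numbered 621, which is 42.1% of the day 21 calls and 12.2% of the 5076 later calls among the genes tested in both fits (28.1% of those genes), and 521 had the same direction.

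The strain difference itself changed between the ages in part of the genes. The difference at day 287 departed from that at day 21 for 2716 of 20847 genes (13%), with 1168 more positive and 1548 more negative in MZCS-0403 at day 287. Among the day 21 calls it was 352 genes (23.9%), against 14.1% of all genes tested in both fits. The day 21 libraries chose these genes and enter the change with age, so this larger share was also favoured by the choice. Without replicate 1 of the day 287 MZCS-0403 males the number over all genes was 810, and without replicate 2 it was 893.

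A set of 195 genes was called in the same direction in all of day 21 skin, day 21 brain, day 39 against day 35 skin and day 287 skin, 104 higher and 91 lower in MZCS-0403. They are 14.1% of the 1385 skin calls and 1.15% of the 17016 genes tested throughout. Their median size was 1.32 on the log2 scale in day 21 skin, 0.99 in brain, 1.43 at day 39 against day 35 and 1.46 at day 287. The fish of the strains did not overlap in day 21 skin for 158 of them (81%), against 58.2% of all genes called there and 5.56% of all genes tested. The set was chosen for being called. With MZCS-0403 replicate 6 left out of the day 21 skin and brain fits, but not of the fit of older ages, the set held 202 genes.

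Of the named genes, Nfu_g_1_021015, Nfu_g_1_000975 and Nfu_g_1_011746 belong to this set. In older skin Nfu_g_1_021015 had 19.3 to 31.2 CPM in MZCS-0403 of day 39 and 2 to 9 counts in MZM-0403 of day 35 (adjusted p 1.95e-11, edgeR). At day 287 it had 14.2 and 7.48 CPM in the 2 MZCS-0403 males and at most 4 counts in MZM-0403 (adjusted p 4.87e-11, edgeR).

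Nfu_g_1_000975 was not present in every MZM-0403 male of day 287. It had at most 3 counts in both MZCS-0403 males of day 287 and 0, 10.1, 9.73, 0.0666, 0.321 and 6.18 CPM in the 6 MZM-0403 males (adjusted p 0.0107, edgeR). Thus 3 MZM-0403 males of day 287 lay above 6 CPM and the other 3 at or below 0.321 CPM, so that the strains overlapped at that age. At the earlier age it had 1 to 10 counts in MZCS-0403 of day 39 and 6.15 to 32.9 CPM in MZM-0403 of day 35 (adjusted p 0.000139, edgeR).

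Nfu_g_1_011746 was lower in MZCS-0403 at each age, without overlap between the fish. It had 28.2 ± 6.11 CPM in MZCS-0403 of day 39 (n = 4) and 51.3 ± 14.4 CPM in MZM-0403 of day 35 (n = 5), with a log2 difference of -0.88 (SE 0.24; edgeR, adjusted p 0.00817). At day 287 it had 11.8 and 7.81 CPM in MZCS-0403 and 49.1 ± 16.7 CPM in MZM-0403 (n = 6), with a log2 difference of -2.32 (SE 0.34; edgeR, adjusted p 2.28e-05).

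Nfu_g_1_002766 varied widely among older fish. It had 370 ± 263 CPM in MZCS-0403 of day 39 (n = 4) and 29.8 ± 39.2 CPM in MZM-0403 of day 35 (n = 5), with a log2 difference of 3.64 (SE 0.78; edgeR, adjusted p 0.00126). At day 287 it had 230 and 69.5 CPM in MZCS-0403 and 7.71 to 111 CPM in MZM-0403, which overlapped (log2 difference 2 with an SE of 0.82; edgeR, adjusted p 0.073). A change of the strain difference between day 21 and day 287 was not called for any of the 4 named genes (adjusted p 0.867 for Nfu_g_1_021015, 0.5 for Nfu_g_1_002766, 0.785 for Nfu_g_1_000975 and 0.242 for Nfu_g_1_011746, edgeR).

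**Figure D5:**
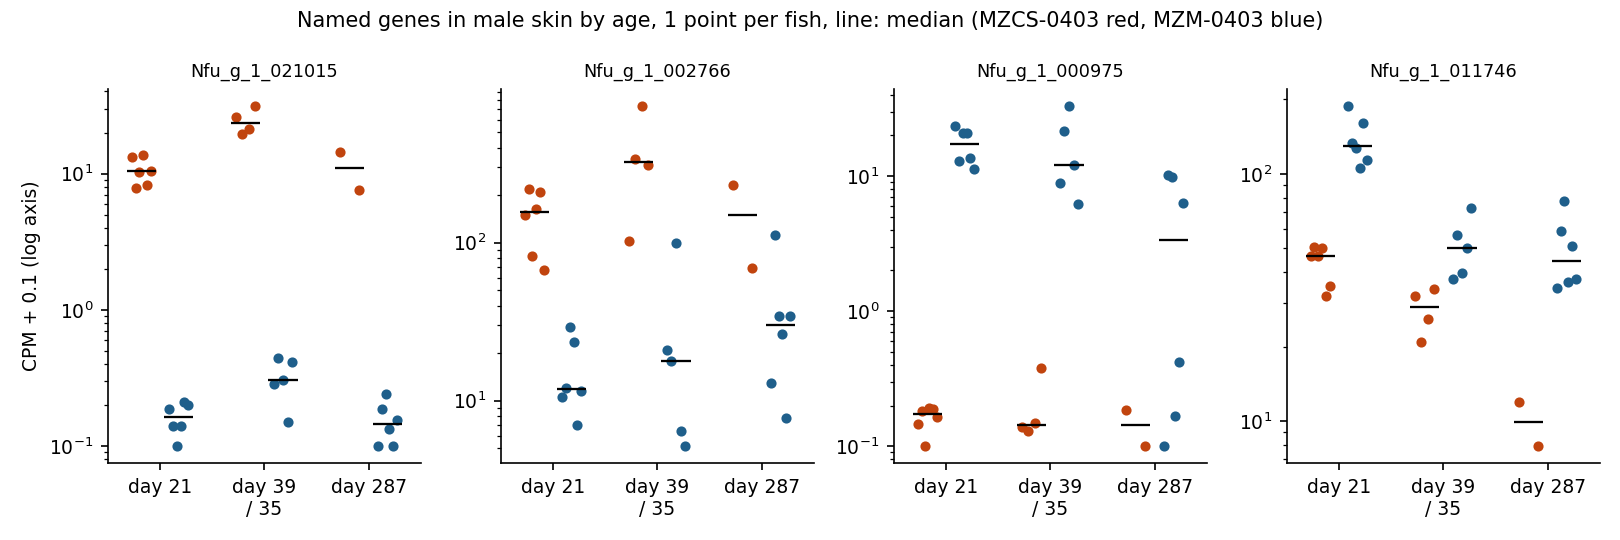
Levels of the 4 named genes in male skin as CPM plus 0.1 on log axes at day 21, at day 39 (MZCS-0403) or day 35 (MZM-0403), and at day 287, 1 point per fish and a line at the median. At each age MZCS-0403 is drawn left of MZM-0403, with 6, 4 and 2 fish of MZCS-0403 and 6, 5 and 6 of MZM-0403. Nfu_g_1_000975 splits the day 287 MZM-0403 fish into 3 above 6 CPM and 3 at or below 0.321 CPM.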

How the data were processed

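The authors deposited raw counts per gene, whole numbers that were not normalised. The submitters' processing notes name STAR 2.5.1b, featureCounts 1.5.0 and bcl2fastq 1.8.4. The genome build, annotation and strand setting are not given in the sources used here, so overlapping or near-identical genes may share reads. Per the labels' protocols, brain and skin came from each specimen, with a column RNA kit and TruSeq RNA v2 libraries, so replicates are separate fish.

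The 12 skin libraries were fitted in edgeR 4.0.16 (R 4.3.3) with TMM factors, filterByExpr (minimum count 10) and a robust quasi-likelihood F-test, 2-sided. Removed genes held 0.145% of counts. Brain was fitted alike. The difference between tissues was an interaction over 24 libraries, and older ages used a fit of 29 male skin libraries with 6 group means. Levels are CPM with TMM factors over the libraries used per tissue, and log2 CPM have a prior count of 2. An SE is the fold change divided by the square root of F. Floors are 3 counts per library and cover counting error only. Brain and skin of a fish deviated together from their group means (correlations 0.102 to 0.300 over 12 fish), so a fit with the fish as a block was run.

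Named genes had an adjusted p under 0.05 and no overlap between the fish. In each direction the largest change with at least 5 CPM in the higher strain and the largest among the others with at least 100 CPM were taken. For the tissues the 2 largest interactions per direction with at least 5 CPM in some group were taken. The comparison and the rules were chosen with earlier results of these data known. The 9 lists of cell type and pathway genes are by symbol and could not be applied. Alternatives used RLE factors, DESeq2 1.42.0, limma 3.58.1 voom, other filters, blocks, other sets of libraries and each library left out.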

Additional observations from a re-analysis of the deposited data

Results flagged for a closer look

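Dixon's criterion flags about 1 in 20 groups of independent, normally distributed values. The CPM here are often skewed, groups share libraries, and some named differences rested on few fish, so that rate does not apply. In 64 groups of 4 to 10 libraries, 16 held a library far from the others by this criterion. MZCS-0403 replicate 6 is such a library in skin, with a median correlation of 0.907 with its strain and 381 genes at least 4-fold above and 221 at least 4-fold below the other fish. In the same library Nfu_g_1_008172 had 199 CPM and Nfu_g_1_004382 had 167 CPM. MZM-0403 replicate 5 also had more genes 4-fold from its strain in skin than the other fish, 93 above and 87 below.

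Single libraries also stood out for named genes. Nfu_g_1_002766 had 104 CPM in brain of MZCS-0403 replicate 2, 210 CPM in brain of GRZ-D replicate 5, 98.8 CPM in skin of MZM-0403 replicate 7 at day 35 and 111 CPM in skin of MZM-0403 replicate 2 at day 287. Nfu_g_1_021015 had 10.7 CPM in brain of GRZ-D replicate 6, below the other 7 fish. Nfu_g_1_000975 had 0.277 CPM in skin of MZCS-0403 replicate 6 at day 39. Nfu_g_1_008172 had 0.798 CPM in skin of MZM-0403 replicate 6 at day 21. Nfu_g_1_004382 had 22.6 CPM in brain of MZM-0403 replicate 1, and Nfu_g_1_021022 had 31.4 CPM in brain of MZCS-0403 replicate 2.

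The strain difference in skin departed from that in brain for 843 genes and, between day 287 and day 21, for 2716 genes. For named genes the departure of skin from brain was 2.01 for Nfu_g_1_002766, -0.75 for Nfu_g_1_011746, 9.62 for Nfu_g_1_008172, 9.56 for Nfu_g_1_004382, -8.29 for Nfu_g_1_010091 and -6.64 for Nfu_g_1_021022 on the log2 scale. Of these, only Nfu_g_1_002766 was still called with the fish as a block. Without MZCS-0403 replicate 6 the departure of Nfu_g_1_004382 was 0.66.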

How the results depend on the processing

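For the day 21 skin difference, the 1475 calls became 2428 with DESeq2, 2225 with limma voom, 863 with a filter at 5 CPM, 2767 with all 84 skin libraries, 3648 with these less the 3 groups that hold libraries near the brain profile, and 951 to 1578 with each library left out. The genes tested also changed, from 18053 to 12109 with that filter, 23722 with all skin libraries and 23160 with these less the 3 groups. Of the 863 calls with that filter, 847 were among the 1475. The calls of at least 2-fold became 290, 1585 and 1836 under that filter and those sets of libraries. With the replicate number as a block the number of calls was 890. The labels neither name nor deny a source shared by same-numbered fish of the strains. The deviations of same-numbered fish from their group means correlated at -0.196 to 0.288, and 2 of 6 MZCS-0403 libraries were nearest their own number. Whether such a source exists was not tested. The tissue difference was called for 1369 genes with DESeq2 and 511 to 796 with each fish left out, including 531 and 538 without MZM-0403 replicates 1 and 3. Voom gave Nfu_g_1_004382 a departure of -1.07 there, the opposite sign. At day 287 voom called 8454 genes, the replicate block in a fit of only those 8 libraries 701, and leaving out each library gave 2043 to 5137, including 2163 without MZCS-0403 replicate 2. With 1 MZCS-0403 male left, that fish is assumed to vary like the other groups. The fit of only those 8 libraries called 7056 genes without the block. Only 2 replicate numbers occurred in both strains there, so with the block the strain difference rested on those numbers. The change of the difference with age was called for 5504 genes with voom and 810 to 3359 with each library left out, including 893 without MZCS-0403 replicate 2 of day 287. No replicate block was fitted for day 39 against day 35, where the strains share too few replicate numbers. The labels name no pairs of fish between the strains. Genes called the same way throughout numbered 119 with the filter at 5 CPM. The causes of these shifts were not tested. Each of the 4 named skin genes kept its direction and call under all 20 alternatives. They were picked from the same libraries for large differences without overlap, so this outcome was favoured by the choice. Of 377 alternative values, 303 kept direction and side of the threshold or stayed within a limit around the value reported. For numbers of genes this limit was wide. It took in 1044 calls for 1475 in day 21 skin without MZCS-0403 replicate 2. It also took in 3869 calls for 5756 at day 39 against day 35 with only the libraries compared. With voom it took in 291 for the 195 genes called the same way throughout. By this limit 115 numbers of genes stayed and 22 moved.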

Other observations

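The genes that set MZCS-0403 replicate 6 apart mostly lay the same way in MZM-0403 skin of day 35 against day 21. This description was chosen after their values were seen and is given without a test. Of the 381 genes at least 4-fold higher in that skin library than in the other MZCS-0403 fish, 310 (81.4%) were higher in MZM-0403 skin at day 35 than at day 21, with a median log2 difference of 0.74. Of the 221 genes at least 4-fold lower, 175 (79.2%) were lower at day 35, with a median of -0.91. Over all genes tested, 48.9% were higher at day 35. The 381 and 221 genes were picked by their levels at day 21, so all genes are not a like set. Genes that set other libraries apart were not compared in this way. Nor were the 381 and 221 genes compared with skin of their own strain, MZCS-0403, at day 39. The MZM-0403 libraries do not include the fish concerned. Across genes, replicate 6 correlated at 0.924 with the mean of the other MZCS-0403 fish of day 21 and at 0.911 with MZCS-0403 of day 39, against 0.971 to 0.982 and 0.924 to 0.943 in the other 5. Its correlation was 0.9045 with MZM-0403 of day 35 and 0.8954 with MZM-0403 of day 21, both below that with its own group. In brain of the same fish the 2 gene sets deviated from the other MZCS-0403 brains by medians of 0.04 and -0.25 on the log2 scale. Of the 381 and 221 genes, 25 (6.56%) and 11 (4.98%) were among the strain differences called, against 8.17% of all genes tested. What set this library apart was not tested.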
